A study of Mus musculus with 50 samples.

Results

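The comparison described here sets mouse embryonic stem (ES) cells homozygous for a deletion of Repeat B of Xist (RepB-/-) against ES cells heterozygous for it (RepB+/-), by RNA-seq of poly(A) RNA after differentiation in culture. It rests on 4 of the 50 samples of the series, 2 libraries per genotype, chosen by their genotype labels, and covers all 24391 genes of the deposited count tables, of which 15149 had enough reads to be tested. The 2 wild-type (WT) ES libraries entered the same fit and are given for orientation. All lines share a hybrid background of the CAST/Ei and 129/Sv/Jae strains, so that a read over a strain variant can be assigned to 129 or CAST. Reads of the 2 strains were unequal: 12182 genes averaged 10 or more reads of 129 per library, and 5098 genes that many of CAST. The RepB-/- line lacks the repeat on both X chromosomes and the RepB+/- line on a single one, and WT cells keep it on both. The labels do not say which copy of Xist lost the repeat in RepB+/- cells, nor whether each line is a single clone. Every culture was raised on irradiated mouse fibroblasts, which were then removed. The cells formed embryoid bodies in suspension for 4 days and spread on plates for another 10 days, so each library holds a mixture of differentiating cell types. In such bulk RNA, fewer cells of a type and less RNA per cell cannot be told apart. The labels do not say that the libraries of a genotype came from separate cultures, so the p-values rest on libraries that may be technical repeats.

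Xist is the long non-coding RNA that coats one X chromosome of female cells and starts its silencing. Repeat B is a tandem repeat within Xist known to be needed for the recruitment of the Polycomb complexes PRC1 and PRC2, which mark histones H2A and H3 on the silenced chromosome. In female ES cells X inactivation takes place during differentiation, and the 129 X chromosome was the source of nearly all Xist reads in the WT libraries of this line. Because both RepB lines carry the deletion, the comparison asks what a second deleted copy adds to a first one. The labels name no separate lines within a genotype, so an effect of the second deleted copy and other differences between the lines cannot be told apart.

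The RepB-/- libraries held 28045645 and 21649020 counts and the RepB+/- libraries 26782887 and 8000722, with 19676395 and 12505962 in WT. The share of counts with an assigned allele lay between 26.7% and 27.4%. RepB+/- replicate 2, the shallowest library, stood apart on the second principal component (23.6% of the variance) at -39.2, while the other 5 lay between -7.18 and 18.3. Y-linked genes had 0 counts in all 6 libraries. Replicates of a genotype differed by far more than counting noise (chi-square per degree of freedom 14.6 in RepB-/-, 17.0 in RepB+/- and 7.63 in WT), so no pair looked like repeats of the same library.

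Of 15149 genes tested, 13 (0.0858%) were called with edgeR's quasi-likelihood test at an adjusted p under 0.05: 3 (0.0198%) rose and 10 (0.066%) fell in RepB-/- relative to RepB+/- cells. A further view without adjustment gave 1003 genes with p under 0.05 (6.62%), 407 of them higher (2.69%) and 596 lower (3.93%) in RepB-/-. Both RepB-/- libraries lay above both RepB+/- libraries in 2452 genes (16.2%) and below them in 2637 (17.4%). The genes that fell were Mfi2, Dll4, Trh, Sox18, Zic2, Myh7, Plvap, Lin28a, Ncbp2 and Pak2, and those that rose were Car9, Pappa2 and Gpnmb.

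Single libraries had a large part in that count. It became 4 without RepB-/- replicate 1, 3 without RepB-/- replicate 2, 66 without RepB+/- replicate 1, 34 without RepB+/- replicate 2, and 6 and 8 without WT replicates 1 and 2. Mfi2 kept its call in all 12 alternative fits. Of the 13 called genes, 3 (Mfi2, Pappa2 and Lin28a) stayed called without RepB-/- replicate 1, and Mfi2 alone without RepB-/- replicate 2. Without RepB+/- replicate 1 Trh and Lin28a lost the call, and without RepB+/- replicate 2 Car9 and Ncbp2 did. Without WT replicate 1 the call was lost by Car9, Pappa2, Sox18, Zic2, Lin28a, Ncbp2 and Pak2, and without WT replicate 2 by Car9, Zic2, Lin28a, Ncbp2 and Pak2. The direction of all 13 was the same in every alternative.

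**Figure D1:**
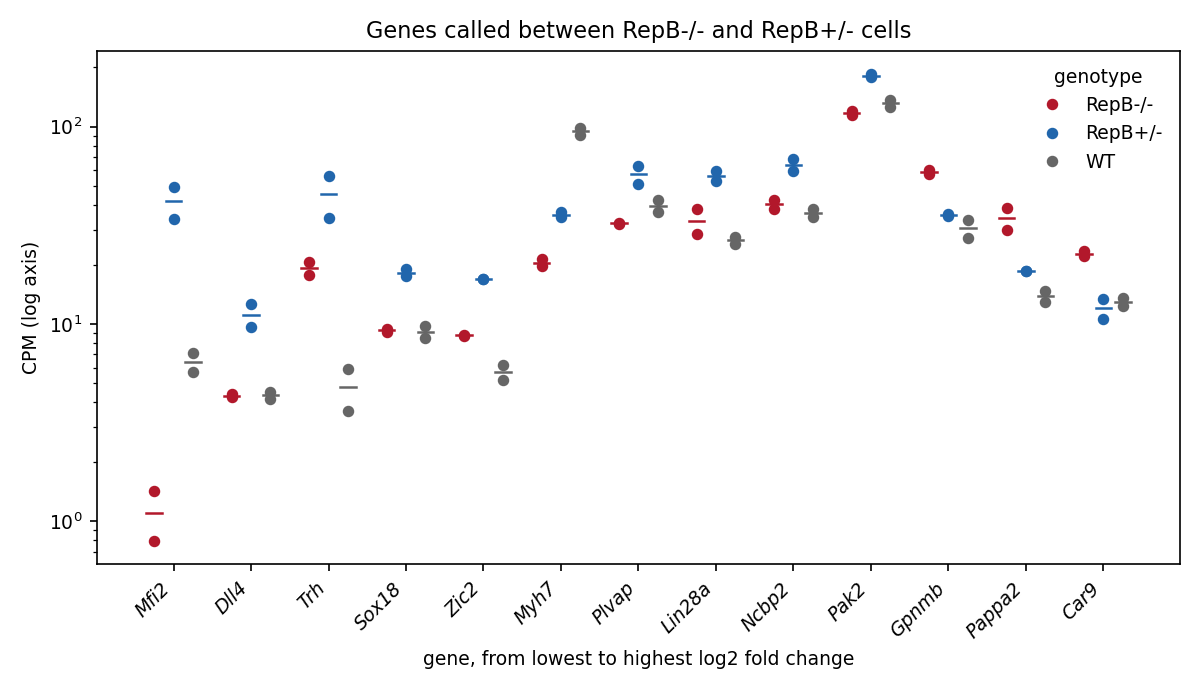
Level of the 13 called genes in scaled counts (CPM, log axis), ordered from the lowest to the highest log2 fold change; points are single libraries of RepB-/- (red), RepB+/- (blue) and WT (grey) cells, and bars are genotype means of 2 libraries. RepB-/- and RepB+/- libraries do not overlap for any of the 13 genes, and Mfi2 stands apart at 0.794 and 1.42 CPM in RepB-/- against 34.2 and 49.5 CPM in RepB+/- cells.

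The promoter sequences of 3 genes that the results turn on are printed here because each is the start of a transcript that differed in a way of its own: Mfi2, with the lowest log2 fold change of the 13, Car9, with the highest, and Xist, which holds the deleted repeat and whose CAST reads rose. They are the 250 bases before the RefSeq start (build GRCm38.p6), 5′ to 3′ on the strand of the gene. Of the 13 called genes and Xist, 9 had a promoter in the RefSeq table. Capitals mark, on either strand, CCAAT (33.8% of 32851 promoters of the same length hold it), TATAAA (12.4%) and ACGTG (16.6%), the core of the hypoxia response element. The motifs do not overlap each other, and a match is a description of the letters only.
Mfi2 (RefSeq Meltf, chr16:31878560-31878809, plus strand): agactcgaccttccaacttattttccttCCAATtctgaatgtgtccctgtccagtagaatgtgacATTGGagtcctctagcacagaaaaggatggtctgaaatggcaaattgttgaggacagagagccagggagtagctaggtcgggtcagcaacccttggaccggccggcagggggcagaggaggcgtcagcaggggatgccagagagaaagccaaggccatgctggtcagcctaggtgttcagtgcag
Car9 (chr4:43506776-43507025, plus strand): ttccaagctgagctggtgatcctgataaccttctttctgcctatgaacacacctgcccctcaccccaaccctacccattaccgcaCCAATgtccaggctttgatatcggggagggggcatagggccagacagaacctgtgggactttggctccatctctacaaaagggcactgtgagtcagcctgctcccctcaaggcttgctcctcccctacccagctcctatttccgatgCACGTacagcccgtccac
Xist (chrX:103483234-103483483, minus strand): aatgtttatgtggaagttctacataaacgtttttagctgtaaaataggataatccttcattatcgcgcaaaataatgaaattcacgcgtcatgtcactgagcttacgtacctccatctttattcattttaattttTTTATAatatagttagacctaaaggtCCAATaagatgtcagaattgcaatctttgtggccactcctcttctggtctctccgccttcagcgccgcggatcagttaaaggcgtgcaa
The Mfi2 window holds CCAAT once on each strand and neither of the other motifs. The Car9 window holds CCAAT and, on the reverse strand, ACGTG near its start site. The Xist window holds CCAAT and TATAAA.

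Mfi2 encodes melanotransferrin, a membrane-anchored protein of the transferrin family. It had 0.794 and 1.42 CPM in RepB-/- cells, against 34.2 and 49.5 CPM in RepB+/- cells, and 5.68 and 7.12 CPM in WT cells. The RepB-/- libraries were the lowest of the 6 and the RepB+/- libraries the highest, with WT between them. The log2 fold change, RepB-/- over RepB+/-, was -5.25 (SE 0.26, edgeR adjusted p = 2.1e-08). The allelic reads of Mfi2 were almost all from 129, with 1 and 10 in RepB-/- and 219 and 78 in RepB+/- libraries, beside 0 and 0 CAST reads in RepB-/- and 1 and 0 in RepB+/-. The gene lies on the plus strand of chromosome 16, where the count table lists an exon at 31878896 to 31879061 (mm9).

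Pak2 and Ncbp2, called too, lie close to Mfi2. Pak2, which encodes a protein kinase acting downstream of the GTPases Rac and Cdc42, had 115 and 119.6 CPM in RepB-/- cells, against 178 and 185 CPM in RepB+/- cells, and 136 and 126 CPM in WT cells. Its log2 fold change was -0.63 (SE 0.10, edgeR adjusted p = 0.0356). Ncbp2, which encodes the small subunit of the nuclear cap-binding complex, had 42.3 and 38.4 CPM in RepB-/-, against 59.5 and 68.6 CPM in RepB+/- and 34.9 and 38.3 CPM in WT cells, a log2 fold change of -0.66 (SE 0.12, edgeR adjusted p = 0.0481). For both genes the RepB+/- libraries were the highest and the RepB-/- libraries lay near WT.

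The neighbourhood of these genes is given with no test, since it was chosen after their values were seen. On chromosome 16 the exons listed for Mfi2 and Rnf168 span 399.6 kb (31878896 to 32278501, mm9), which need not be the ends of these genes. From Mfi2 to Rnf168 all 12 tested genes had a log2 fold change below 0 and RepB-/- libraries that lay below both RepB+/- libraries. Without Mfi2 the other 11 ranged from -0.77 to -0.38 with a median of -0.59. The 20 tested genes that flank the stretch, 10 on each side, had a median of -0.05 and ranged from -0.51 to 0.28. Senp5, a SUMO protease gene, had 61.2 and 64.0 CPM in RepB-/- and 90.1 and 92.0 CPM in RepB+/- cells (log2 fold change -0.54, SE 0.10, edgeR adjusted p = 0.0711), and Rnf168, a ubiquitin ligase gene of the DNA damage response, had 29.3 and 30.9 CPM against 50.6 and 42.0 CPM (-0.63, SE 0.12, adjusted p = 0.0734). Neither of these 2 was called. Relative to WT, mean levels in RepB-/- cells were 0.895-fold for Pak2, 1.10-fold for Ncbp2 and 1.13-fold for Rnf168, while in RepB+/- cells they were 1.38-fold, 1.75-fold and 1.74-fold.

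**Figure D2:**
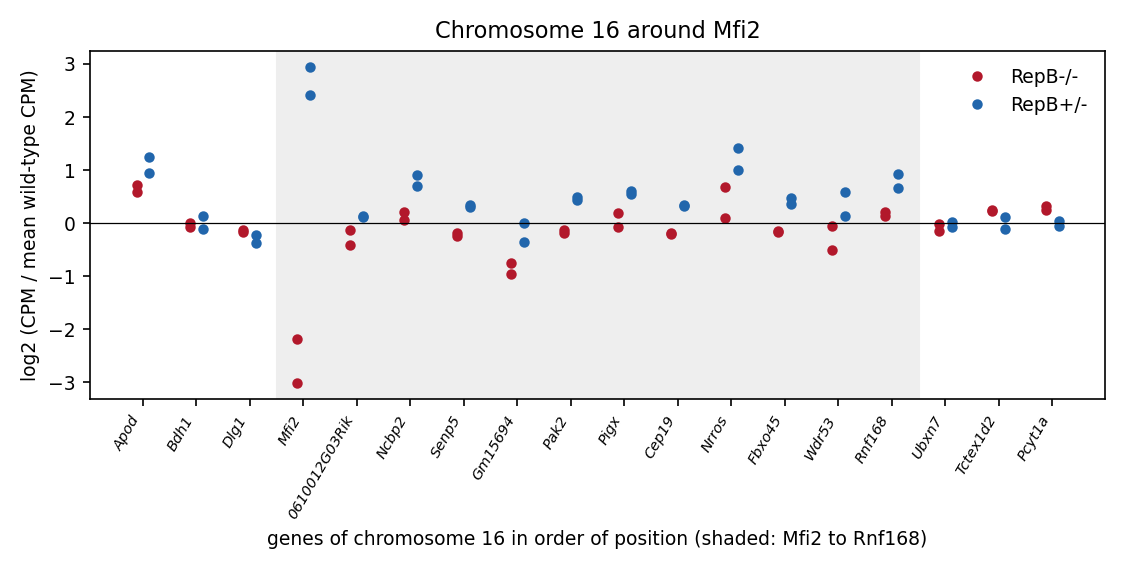
Level of each tested gene of chromosome 16 around Mfi2, as log2 of its CPM over the mean CPM of the 2 WT libraries, in order of position; points are single RepB-/- (red) and RepB+/- (blue) libraries, and the shaded genes run from Mfi2 to Rnf168. Within the shading the RepB+/- libraries lie above the RepB-/- libraries for all 12 genes. Beyond it the libraries overlap at Bdh1 and Ubxn7, while RepB-/- lies higher at Dlg1, Tctex1d2 and Pcyt1a and lower at Apod.

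Of the 10 genes that fell, 3 are known for roles in the endothelium, the cell layer that lines blood vessels. Dll4, the Notch ligand of arterial and sprouting endothelium, had 4.28 and 4.39 CPM in RepB-/- cells, against 9.62 and 12.7 CPM in RepB+/- cells (log2 fold change -1.33, SE 0.21, edgeR adjusted p = 0.0356). Sox18, a transcription factor of blood and lymphatic vessel formation, had 9.11 and 9.46 CPM against 17.4 and 18.999 CPM (-0.96, SE 0.16, adjusted p = 0.0386). Plvap, a structural protein of the diaphragms of endothelial fenestrae, had 32.6 and 32.3 CPM against 51.4 and 63.5 CPM (-0.81, SE 0.12, adjusted p = 0.0356). In all 3 the RepB-/- libraries lay close together and near WT, which had 4.18 and 4.49 CPM of Dll4, 9.81 and 8.48 CPM of Sox18, and 36.8 and 42.3 CPM of Plvap. A list of 11 endothelial marker genes, of which Sox18 was the single one called, had a median log2 fold change of -0.39, against -0.01 over all genes tested. Both RepB-/- libraries lay below both RepB+/- libraries for 9 of the 11 (17.4% of all genes tested), and 6 had an unadjusted p under 0.05 in the lower direction (3.93% of all genes tested). Its members summed to 399 and 415 CPM in RepB-/-, 490 and 504 CPM in RepB+/-, and 471 and 520 CPM in WT libraries, and the part of endothelial cell number in the values of Dll4, Sox18 and Plvap was not tested. Cdh5, the cadherin of endothelial junctions, had 79.8 and 75.5 CPM in RepB-/- against 108 and 105 CPM in RepB+/- cells (log2 fold change -0.46, SE 0.10, edgeR adjusted p = 0.147) and was not called. In WT cells it had 120 and 134 CPM, above both RepB genotypes. Tek and Eng, an endothelial receptor kinase and a coreceptor of the TGF-beta family, had log2 fold changes of 0.12 and -0.08.

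Myh7, the beta heavy chain of heart myosin, was the heart muscle gene that fell. It had 19.6 and 21.3 CPM in RepB-/- cells, against 36.9 and 34.8 CPM in RepB+/- cells, and 91.2 and 98.6 CPM in WT cells (log2 fold change, RepB-/- over RepB+/-, -0.81, SE 0.11, edgeR adjusted p = 0.021). The 3 genotypes did not overlap, and the order was RepB-/- below RepB+/- below WT. The 21 tested genes of the cardiac sarcomere and calcium handling list had a median of -0.31. Myh7 was the only one called, and 7 had an unadjusted p under 0.05 in the lower direction (3.93% of all genes tested). In the higher direction 1 did (2.69% of all genes tested), the atrial myosin light chain gene Myl7 at 0.35. Myh6, the alpha heavy chain, had 34.7 and 51.4 CPM in RepB-/- against 64.1 and 69.1 CPM in RepB+/- cells (-0.63, SE 0.16, edgeR adjusted p = 0.234). The list summed to 652 and 688 CPM in RepB-/-, 731 and 791 CPM in RepB+/-, and 1175 and 1290 CPM in WT libraries. The genotypes thus stood in the same order as for Myh7, without overlap of their libraries, and the part of heart muscle cell number was not tested.

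The transcription factors of the heart gave a less uniform picture. Among 14 of them none was called and the median was -0.17, and this median had another sign without RepB+/- replicate 2, at 0.06. Isl1, a factor of cardiac progenitors and motor neurons, had 2.66 and 2.97 CPM in RepB-/- against 6.35 and 7.88 CPM in RepB+/- cells and 3.46 and 3.90 CPM in WT cells, a log2 fold change of -1.31 (SE 0.24, edgeR adjusted p = 0.0536), just above the threshold of 0.05. Leaving out RepB+/- replicate 1 gave -1.49 and leaving out replicate 2 of that genotype gave -1.17, each with 1 RepB+/- library left. Nkx2-5, an early factor of heart muscle, had 2.66 and 2.65 CPM against 4.07 and 4.65 CPM (-0.69, SE 0.25, edgeR adjusted p = 0.546). Tbx20, Gata4, Hand1 and Tbx5, which act in the same tissue, had log2 fold changes between 0.08 and 0.15.

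Lin28a and Zic2 are genes of early embryonic cells. Lin28a, whose RNA-binding protein blocks maturation of the let-7 microRNAs, had 38.1 and 28.5 CPM in RepB-/- cells, against 59.9 and 52.99 CPM in RepB+/- cells, and 25.4 and 27.6 CPM in WT cells (log2 fold change -0.77, SE 0.14, edgeR adjusted p = 0.0494). Zic2, a zinc finger factor of the epiblast and neural plate, had 8.84 and 8.68 CPM in RepB-/-, against 16.9 and 16.8 CPM in RepB+/-, and 6.19 and 5.17 CPM in WT cells (-0.94, SE 0.16, adjusted p = 0.0475). Both were lower in RepB-/- than in RepB+/- cells, and for both the 2 WT libraries were the lowest of the 6.

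In the pluripotency list, genes of the undifferentiated state, Lin28a was the only one called. Of its 21 genes 20 had a log2 fold change below 0 (51.5% of all genes tested), with a median of -0.29, and 9 had an unadjusted p under 0.05 in the lower (3.93%) and 1 in the higher direction (2.69%). Its members summed to 812 and 734 CPM in RepB-/-, 1039 and 858 CPM in RepB+/-, and 469 and 546 CPM in WT libraries. Sox2 had 54.5 and 63.0 CPM in RepB-/- against 87.9 and 80.4 CPM in RepB+/- cells (-0.52, SE 0.13, edgeR adjusted p = 0.234). Pou5f1, which encodes Oct4, had 98.2 and 82.0 CPM against 127 and 89.96 CPM (-0.28, SE 0.15, adjusted p = 0.801), and Nanog 75.7 and 67.6 CPM against 102 and 71.1 CPM (-0.29, SE 0.15, adjusted p = 0.788). For Pou5f1 and Nanog the RepB-/- and RepB+/- libraries overlap. RepB+/- replicate 1 held most of the list's difference: its median was -0.01 without that library and -0.48 without RepB+/- replicate 2. No member was at 0 in all libraries, and the part of undifferentiated cells in these values was not tested.

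Genes of the Nodal pathway and the primitive streak, which pattern the early embryo, had a median of -0.61, the lowest of the lists, with none called. Of 14 genes 13 were below 0 (51.5% of all genes tested), 10 had an unadjusted p under 0.05 in the lower direction (3.93%), and RepB-/- lay below RepB+/- without overlap in 9 (17.4%). Otx2, a homeobox factor of epiblast and forebrain, had 8.18 and 7.77 CPM in RepB-/- cells, against 17.1 and 11.8 CPM in RepB+/- cells. In WT cells it had 4.85 and 5.00 CPM. Its log2 fold change was -0.90 (SE 0.19, edgeR adjusted p = 0.109), and -1.09 without RepB+/- replicate 2, which left 1 library of that genotype. Nodal itself, the ligand, had 10.7 and 8.64 CPM against 16.1 and 13.8 CPM and 4.03 and 4.41 CPM in WT (-0.64, SE 0.18, adjusted p = 0.322). Lefty1, a Nodal antagonist gene, had 25.9 and 18.4 CPM against 26.5 and 19.4 CPM, with overlap (-0.08, adjusted p = 0.971). The median of the list lay at -0.36 without RepB+/- replicate 1 and at -0.89 without RepB+/- replicate 2. Dnmt3b, a de novo DNA methyltransferase gene active in the epiblast, had 26.0 and 25.9 CPM in RepB-/- against 50.1 and 34.6 CPM in RepB+/- cells. Its log2 fold change was -0.74 (SE 0.15, edgeR adjusted p = 0.101), and -0.94 without RepB+/- replicate 2, again with 1 RepB+/- library left.

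**Figure D3:**
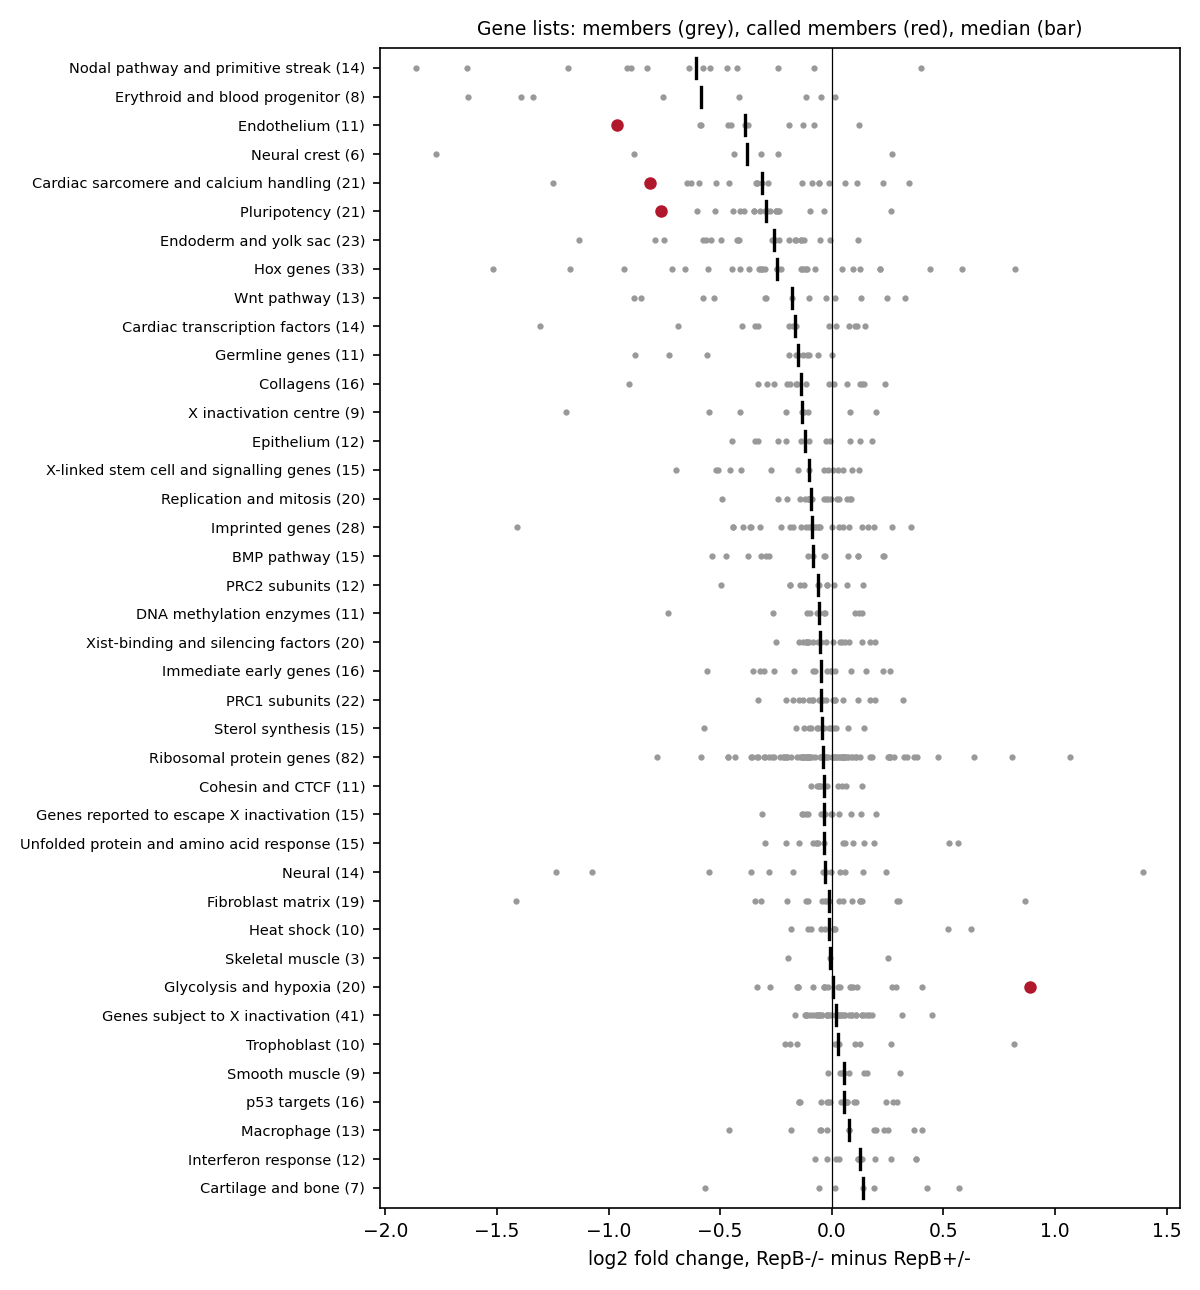
Log2 fold change, RepB-/- minus RepB+/-, of every tested member of each gene list (grey points, called members in red) with the list median as a black bar; the number of tested genes stands in brackets and lists run from the lowest median at the top. Called members are Sox18, Myh7, Lin28a and Car9, and the medians run from -0.61 (Nodal pathway and primitive streak) to 0.14 (cartilage and bone).

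Trh, the precursor gene of thyrotropin-releasing hormone, had 20.6 and 17.7 CPM in RepB-/- cells, against 56.4 and 34.3 CPM in RepB+/- cells, and 3.61 and 5.93 CPM in WT cells. The genotypes did not overlap, and RepB-/- stood between the other genotypes. Its log2 fold change was -1.27 (SE 0.20, edgeR adjusted p = 0.0356). DESeq2 did not call Trh (adjusted p = 0.307).

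The genes that rose are of unlike kinds. Car9, a membrane carbonic anhydrase induced by hypoxia, had 23.3 and 22.2 CPM in RepB-/- cells, against 13.4 and 10.6 CPM in RepB+/- cells, and 12.4 and 13.6 CPM in WT cells (log2 fold change 0.89, SE 0.15, edgeR adjusted p = 0.0475). Pappa2, a metalloprotease that cleaves binding proteins of insulin-like growth factors, had 29.9 and 38.9 CPM against 18.6 and 18.6 CPM in RepB+/- and 14.6 and 12.97 CPM in WT cells (0.88, SE 0.15, adjusted p = 0.0393). Gpnmb, a membrane glycoprotein of macrophages, osteoclasts and melanocytes, had 60.2 and 57.9 CPM against 35.2 and 35.9 CPM in RepB+/- and 27.4 and 33.7 CPM in WT cells (0.73, SE 0.12, adjusted p = 0.0356). In all 3 the RepB-/- libraries were the highest of the 6.

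Lists of related genes were read beside them. Of 20 genes of glycolysis and hypoxia Car9 was the only one called, with 10 genes above 0 and 10 below (48.5% of all genes tested lay above 0). Aldoc, an aldolase gene, had 42.8 and 40.2 CPM in RepB-/- against 30.7 and 32.3 CPM in RepB+/- cells (log2 fold change 0.40, SE 0.11, edgeR adjusted p = 0.322), and Slc2a3, a glucose transporter gene, had 545 and 521 CPM against 695 and 650 CPM (-0.34, SE 0.12, adjusted p = 0.566). Of 13 macrophage genes none was called. Their sum was 450 and 592 CPM in RepB-/-, 439 and 589 CPM in RepB+/-, and 321 and 294 CPM in WT libraries, so the libraries of a RepB genotype differed from each other by more than the genotypes did. In the cartilage and bone list Spp1, which encodes osteopontin, had 98.2 and 82.1 CPM in RepB-/- against 63.0 and 58.0 CPM in RepB+/- cells (0.57, SE 0.12, edgeR adjusted p = 0.0966), and in the fibroblast matrix list S100a4, a calcium-binding protein gene, had 23.2 and 18.7 CPM against 11.9 and 10.99 CPM (0.86, SE 0.16, adjusted p = 0.0608). Neither was called.

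The 13 genes differed in how they stood to WT. The comparisons with WT share the RepB libraries that chose these genes, so their values are given as a description. All 10 genes that fell in RepB-/- relative to RepB+/- also differed between RepB+/- and WT (edgeR adjusted p under 0.05), 9 of them higher in RepB+/- and Myh7 lower. In RepB-/- against WT, 4 of the 10 were called: Trh (log2 fold change 2.06) and Zic2 (0.61) higher, Mfi2 (-2.55) and Myh7 (-2.21) lower. The 3 genes that rose were all higher in RepB-/- than in WT, at 0.82 for Car9, 1.31 for Pappa2 and 0.96 for Gpnmb. None of the 3 was called between RepB+/- and WT, where Pappa2 had a log2 fold change of 0.43 (edgeR adjusted p = 0.0805) without overlap of the libraries.

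Genes of the X chromosome, which carries the deletion, showed no called difference in level between RepB-/- and RepB+/- cells. Of 562 X-linked genes tested with edgeR 0 were called (0.0858% of all genes tested), and DESeq2 called 1 (Irs4). An unadjusted p under 0.05 was found for 10 in the higher direction (2.69% of all genes tested) and 33 in the lower (3.93%). Their median log2 fold change was -0.03, or 0.07 without RepB+/- replicate 1, and the medians of the autosomes lay between -0.02 and 0.01. X-linked genes took 3.74% and 3.74% of all counts in RepB-/-, 3.87% and 3.51% in RepB+/-, and 3.05% and 2.95% in WT libraries. The RepB-/- libraries lay between the RepB+/- libraries, and both genotypes lay above WT. The X-linked count of 0 became 1 without RepB+/- replicate 1 and 5 without RepB+/- replicate 2.

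The X-linked genes with the lowest p, chosen after their values were seen, were Irs4, Timp1, Tmem255a and Sox3. Irs4, an adaptor of insulin and growth factor receptors, had 2.59 and 4.02 CPM in RepB-/- cells, against 8.602 and 7.11 CPM in RepB+/- cells, and 2.27 and 2.71 CPM in WT cells (log2 fold change -1.29, SE 0.25, edgeR adjusted p = 0.0746). Sox3, a transcription factor of neural progenitors, had 3.45 and 3.02 CPM against 5.55 and 9.82 CPM, and 3.10 and 4.49 CPM in WT (-1.15, SE 0.28, adjusted p = 0.234). Without overlap in these libraries, both lay lower in RepB-/- than in RepB+/- and near WT in RepB-/-. Timp1, an inhibitor of matrix metalloproteases, had 111 and 102 CPM against 83.0 and 71.7 CPM, and 65.5 and 70.1 CPM in WT (0.45, SE 0.11, edgeR adjusted p = 0.228).

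Lists of X-linked genes held no called gene. Of 41 genes known to be subject to X inactivation none was called, and their median was 0.02. They summed to 9923 and 10439 CPM in RepB-/-, 9946 and 10125 CPM in RepB+/-, and 7290 and 7645 CPM in WT libraries. Of 15 genes reported to escape X inactivation none was called, with a median of -0.04. Utp14a, a gene of ribosomal RNA processing, had 42.8 and 40.3 CPM in RepB-/- against 53.7 and 49.2 CPM in RepB+/- cells (log2 fold change -0.31, SE 0.12, edgeR adjusted p = 0.582). Of 9 tested genes of the X inactivation centre none was called, with a median of -0.13. The list of 15 X-linked stem cell and signalling genes had a median of -0.10, with none called.

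Genes of the proteins that act with Xist were tested in the same fit. Of 20 genes of Xist-binding and silencing factors none was called, all lay between -0.25 and 0.19, and their median was -0.05. Hnrnpu, a nuclear matrix protein gene that tethers Xist to chromatin, had 507 and 494 CPM in RepB-/- against 562 and 628 CPM in RepB+/- cells (log2 fold change -0.25, SE 0.12, edgeR adjusted p = 0.788). Pcgf3, a subunit of a PRC1 form that acts early in X inactivation, had 127 and 145 CPM against 126 and 115 CPM (0.17, SE 0.11, adjusted p = 0.868). Of 12 PRC2 genes none was called, with a median of -0.06. E130012A19Rik, also known as Epop, whose protein binds PRC2 and elongin, had 49.8 and 51.0 CPM in RepB-/-, against 69.4 and 72.9 CPM in RepB+/-, and 58.3 and 63.5 CPM in WT cells, the lowest p of that list (-0.49, SE 0.10, edgeR adjusted p = 0.112). Ezh2, the histone methyltransferase of PRC2, had 103 and 93.1 CPM against 104 and 94.7 CPM (-0.02). Of 22 PRC1 genes none was called, with a median of -0.05.

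Xist itself was abundant in every library. It had 828 and 1149 CPM in RepB-/- cells, against 917 and 809 CPM in RepB+/- cells, and 910 and 902 CPM in WT cells. The RepB-/- libraries held both the highest and the second lowest value of the 6. The log2 fold change was 0.20 (SE 0.16, edgeR adjusted p = 0.915), and it ran from -0.057 without RepB-/- replicate 2 to 0.42 without RepB-/- replicate 1. The gene is on the minus strand of chromosome X, with an exon listed at 100655712 to 100663375 (mm9). Since reads were counted over all its exons, the level is no check of a deletion within Xist. Tsix is transcribed across Xist on the other strand and had 2.21 and 2.70 CPM in RepB-/- against 3.55 and 3.62 CPM in RepB+/- cells. The strand setting of the counting is not given, so Tsix reads and Xist reads cannot be told apart.

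The source of Xist RNA separated the genotypes where its total did not. Of the allelic Xist reads of RepB-/- replicate 1, 812 were from CAST and 6684 from 129, a CAST share of 10.8% (exact Clopper-Pearson 95% interval 10.1% to 11.6%), and in RepB-/- replicate 2 the reads were 960 and 6552, a share of 12.8% (12.03% to 13.6%). In RepB+/- replicate 1 they were 172 and 7672, a share of 2.19% (1.88% to 2.54%), and in replicate 2 they were 50 and 1768, a share of 2.75% (2.05% to 3.61%). The WT libraries had 1.12% and 1.42%. The 3 genotypes did not overlap in this share, and the RepB-/- mean was 11.8% ± 1.38 (SD, n = 2), against 2.47% ± 0.394 in RepB+/- and 1.27% ± 0.211 in WT. For RepB-/- against RepB+/- the exact two-sided permutation p of this share was 0.333, the lowest that 2 libraries against 2 allow. The log2 ratio of 129 to CAST reads differed by -2.45 between RepB-/- and RepB+/- (SE 0.17, edgeR adjusted p = 1.44e-40), and this call held in all 11 alternatives, including DESeq2 (adjusted p = 2.92e-14).

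Scaled to all reads of a library, CAST reads of Xist had 28.0 and 43.9 CPM in RepB-/- cells, against 6.04 and 6.46 CPM in RepB+/- cells, and 3.15 and 4.07 CPM in WT cells. They rose in RepB-/- relative to RepB+/- (log2 fold change 2.53, SE 0.23, edgeR adjusted p = 0.000776), one of 3 genes called among 5098 tested in CAST reads (0.0588%). The 129 reads of Xist had 231 and 299 CPM in RepB-/-, against 269 and 229 CPM in RepB+/-, and 277 and 282 CPM in WT cells, and differed by 0.09 on the log2 scale (SE 0.16, edgeR adjusted p = 1.00). The libraries overlap in the 129 reads, and the CAST reads carry the difference in the ratio.

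**Figure D4:**
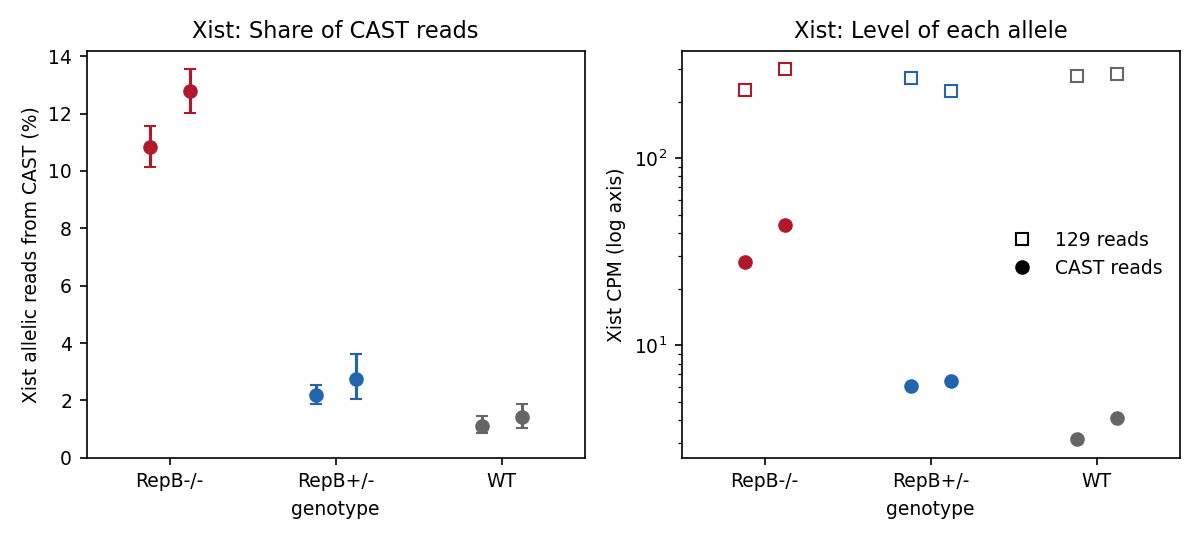
Left, the share of allelic Xist reads given to CAST in each library, with exact 95% binomial intervals that cover counting error only; right, the level of Xist reads of each allele in CPM on a log axis (open squares 129, filled circles CAST). The CAST share is 10.8% and 12.8% in RepB-/-, 2.19% and 2.75% in RepB+/-, and 1.12% and 1.42% in WT libraries, while the 129 level lies between 229 and 299 CPM in all 6.

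Apart from Xist, the allelic balance of the X chromosome was close in the 2 RepB genotypes. Over 376 X-linked genes without Xist the median share of reads from 129, the chromosome that makes most Xist, was 35.5% and 34.1% in RepB-/-, 35.8% and 31.0% in RepB+/-, and 5.30% and 6.57% in WT libraries. The RepB-/- libraries lay between the RepB+/- libraries, and WT lay far below both. The difference of RepB-/- minus RepB+/- was 1.43 percentage points, with an exact two-sided permutation p of 1, where 2 libraries against 2 allow no p under 0.333. It changed sign without RepB+/- replicate 2, at -0.95 points, and was 3.805 points without RepB+/- replicate 1. Gene by gene, 231 of the 376 had a higher mean share in RepB-/- and 145 a lower one, beside 197 and 220 of the 418 genes of chromosome 13, which carries alleles of both strains. Chromosome 13 had median shares of 50.0% and 50.0% in RepB-/- and 50.7% and 50.0% in RepB+/-. RepB+/- replicate 2, the shallowest library, had the lowest X-linked share of the 4, and the part of its depth was not tested.

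The 38 measured genes known to be silenced on the inactive X chromosome had a median of 129 reads of 42.3% and 42.0% in RepB-/-, against 42.0% and 37.2% in RepB+/-, and 8.07% and 8.70% in WT libraries. The 14 measured genes that escape X inactivation had 39.9% and 36.1% in RepB-/-, 39.4% and 36.0% in RepB+/-, and 18.1% and 10.3% in WT. In both lists the RepB-/- and RepB+/- libraries overlap, in the silenced list only by 42.00% in a RepB-/- against 42.05% in a RepB+/- library. Gene by gene, 30 of the 38 silenced genes had a higher mean 129 share in RepB-/- and 8 a lower one. Both RepB-/- libraries lay above both RepB+/- libraries in 26.3% of the 38 and below them in 5.26%, beside 11.9% and 13.4% of all genes tested. The same shares were 18.1% and 10.1% for all X-linked genes without Xist, and 16.7% and 15.3% for chromosome 13. For the genes that escape, 9 of 14 were higher and 5 lower. Hprt, a purine salvage enzyme gene that is silenced on the inactive X chromosome, had 52.7% and 49.5% of its reads from 129 in RepB-/-, 49.0% and 37.1% in RepB+/-, and 16.5% and 10.4% in WT. Ddx3x, an RNA helicase gene that escapes silencing, had 43.1% and 42.2%, 42.2% and 36.1%, and 20.2% and 18.5% in the same genotypes. Along the chromosome, the difference between genotypes in the mean of the library medians ranged from 0.29 percentage points, in the stretch from 140 to 160 Mb, to 3.71 points, from 120 to 140 Mb (mm9). Between 120 and 140 Mb the 53 measured genes had medians of 26.3% and 26.0% in RepB-/-, against 23.8% and 21.1% in RepB+/- libraries. With the reads of these genes pooled the difference was 0.11 points. Of the 53, 31 had a higher mean 129 share in RepB-/- and 22 a lower one.

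**Figure D5:**
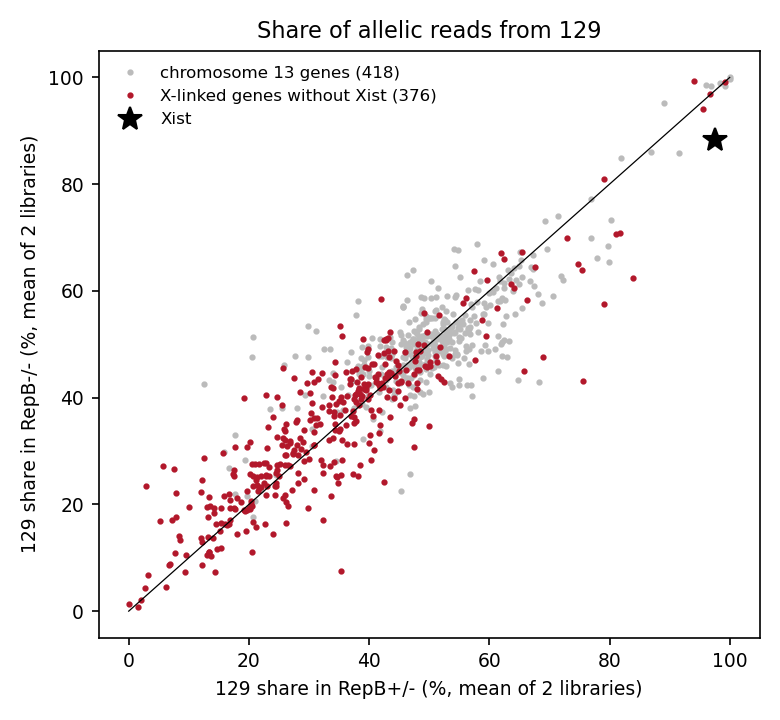
Share of allelic reads from 129 per gene in RepB-/- (vertical) against RepB+/- (horizontal), each the mean of 2 libraries, for 376 X-linked genes without Xist (red), 418 genes of chromosome 13 (grey) and Xist (star); the line marks equal shares. X-linked genes gather about the line below the chromosome 13 genes, and Xist lies below the line.

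Per gene, the ratio of 129 to CAST reads was tested for 11597 genes, and 35 were called (0.302%), 22 toward 129 and 13 toward CAST in RepB-/-. On the X chromosome 2 of 377 were called, Xist and the ribosomal protein gene Rpl39, and on chromosome 13 none of 418. An unadjusted p under 0.05 was found for 3 genes of chromosome 13, beside 185 toward 129 and 147 toward CAST of all 11597. Rpl39 has copies of near-identical sequence elsewhere, and its 129 shares overlap between the genotypes (99.8% and 98.8% in RepB-/-, 88.1% and 100% in RepB+/- libraries). DESeq2 called Xist only. Of the 35, 22 had shares that did not overlap between RepB-/- and RepB+/-, beside 11.9% and 13.4% of all genes tested that lay apart in the higher and lower direction. For X-linked genes without Xist, 0 of 314 were called in 129 reads (median log2 fold change 0.05) and 0 of 390 in CAST reads (-0.03). In 129 reads 5 were higher and 6 lower with an unadjusted p under 0.05, beside 300 and 259 of all 12182 genes. In CAST reads 2 were higher and 13 lower, beside 89 and 94 of all 5098 genes.

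Every autosomal call except those of Ipo5 and Ahnak was lost in at least 1 of the fits that left out 1 library. DESeq2 called no autosomal gene. Ipo5, a nuclear import receptor gene on chromosome 14, kept its call whichever library was left out. It had 311 and 225 CAST reads in RepB-/-, 59 and 27 in RepB+/-, and 31 and 19 in WT libraries, beside 1083 and 719, 1067 and 233, and 585 and 323 reads of 129. The log2 ratio of its 129 to CAST reads differed by -2.06 (SE 0.27, edgeR adjusted p = 2.31e-11), a call that DESeq2 did not make (adjusted p = 0.798), and its CAST reads rose with a log2 fold change of 2.04 (SE 0.25, edgeR adjusted p = 0.00676). Ahnak, a large scaffold protein gene, shifted toward 129 by 1.67 (SE 0.20, edgeR adjusted p = 3.12e-13), with 97.9% and 99.1% of its reads from 129 in RepB-/- and 95.1% and 95.9% in RepB+/- libraries. Rpl32, by contrast, had 129 shares of 78.1% and 75.2% in RepB-/- against 20.4% and 84.0% in RepB+/- libraries. RepB+/- replicate 1 alone made its shift of 1.91, which was -0.67 without that library. Its edgeR adjusted p was 3.12e-13 with all libraries. A small p of an allele ratio thus does not mean that the libraries of a genotype were alike. Of the other genes named by rule, Snx4, Ppig, Ssr2, H19, Rpl11 and Prpf38b lost their calls without RepB+/- replicate 1, Hspa8 without RepB+/- replicate 2, Cox8a and Rpl11 without RepB-/- replicate 1, and Prpf38b, Hspa8 and H19 without RepB-/- replicate 2. A lost call did not always go with a smaller shift: without RepB+/- replicate 1 the shift of Rpl11 was -5.71 (-5.34 with all libraries) and that of Prpf38b -3.49 (-4.00), with SEs of 2.52 and 0.96. H19 reads shifted by 0.80 toward 129 with all libraries and by 0.27 without RepB-/- replicate 2. Ahnak, H19 and Ssr2 had nearly all their allelic reads from 129 in every library, and Cox8a, Rpl11 and Prpf38b did in most libraries. Ipo5 also had most of its allelic reads from 129 in every library, while Hspa8 had most of them from CAST. For none of the called autosomal genes, Ipo5 included, was it tested whether the CAST reads came from a CAST allele.

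In reads of the 129 allele, 4 of 12182 genes were called (0.0328%), among them Mfi2, Trh and Myh7, which fell. Of 82 ribosomal protein genes tested over all reads none was called, and their median log2 fold change was -0.04.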

How the data were processed

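Per the file headers, the deposited tables hold the authors' whole-number read counts per gene and library, with positions on mm9, in the layout of featureCounts: all reads, and reads headed mus and cas, read here as 129 and CAST because the labels give those strains. The submitters' processing notes name TopHat, Novoalign, featureCounts, SAMtools, bedtools, cutadapt, Juicer and HOMER for the series. Roles, versions, strand setting and treatment of multi-mapped reads are not given in the sources used here. Of the 50 samples, 44 were not used here.

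All 6 ES libraries entered a joint edgeR 4.0.16 fit (limma 3.58.1, R 4.3.3). Low genes were removed by filterByExpr (minimum count 10 and minimum total 15), libraries were scaled by TMM, and genotype alone was modelled in the quasi-likelihood F-test. A gene was called at an adjusted p under 0.05 (Benjamini-Hochberg, over all genes tested). The common biological coefficient of variation was 9.49%. CPM are counts scaled by TMM library size. Allele ratios were tested by the allele-by-genotype term, with library as a block, where a gene averaged 20 or more allelic reads. For one allele, the minimum was 10 reads and the scaling that of all reads. Median shares and the CAST share of Xist were compared by exact permutation, two-sided. Intervals are exact Clopper-Pearson at 95% and cover counting error only. The code was tested on simulated data.

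Named genes were Xist, up to 10 called genes in each direction with the largest change (mean of at least 5 CPM, no overlap), up to 4 called genes per list or the 2 with the lowest p, and the 6 leading allele shifts each way. The chromosome 16 stretch, Irs4, Tmem255a, Sox3, Sox2, Pou5f1, Nanog, Ezh2, Rpl39 and other list members named beside these were chosen after their values were seen. The members and the 42 lists were chosen with earlier results of these data known; 2 lists (Y-linked and mitochondrially encoded) had no gene tested. Alternatives were DESeq2 1.42.0 and its size factors, no filter, the 4 RepB libraries only, thinning to the shallowest library, a replicate block, other allelic minimums and leaving out each library. A list is described by its counts and median, with no set test. Some results are not reported here.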

Additional observations from a re-analysis of the deposited data

How the results depend on the processing

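The 13 genes called between RepB-/- and RepB+/- became 30 with DESeq2, 124 with no filter and 6 with the 4 RepB libraries only, and 3 to 66 when 1 library was left out. With the size factors of DESeq2 in edgeR the count was 13, and after thinning 10. DESeq2 called 12 of the 13 genes. The 0 X-linked genes became 1 with DESeq2, 8 with no filter, and 0 to 5 with 1 library left out. The 4 called genes of the lists became 8 with DESeq2, 31 with no filter, 1 with the 4 RepB libraries, 2 after thinning, and 1 to 14 with 1 library left out. The log2 fold change of Xist lay between -0.057 and 0.42 with 1 library left out and was never called. For allele ratios DESeq2 called 1 gene of 35, and 1 of the 2 on the X chromosome, where leaving out 1 library gave 1 to 2. With 1 library left out, 4 to 8 genes were called in 129 reads and 3 to 5 in CAST reads. The difference of X-linked shares ran from -0.95 to 3.805 percentage points and the X-linked median from -0.065 to 0.072, so neither kept its sign. The Xist allele ratio kept its direction and its call in the 11 alternatives run.

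With 1 library left out, the allele shift changed sign for 8 genes, none called at the opposite sign. It ran from -0.67 to 3.69 for Rpl32, -0.21 to 1.53 for H19, -3.08 to 4.08 for Pea15a, -0.94 to 5.42 for Rpl39 and -0.53 to 4.73 for Smim1, each lowest without RepB+/- replicate 1. It ran from -0.052 to 3.27 for Sec22b and -1.13 to 2.97 for Dlg4, lowest without RepB+/- replicate 2, and from -6.28 to 1.94 for Rpl11, highest without RepB-/- replicate 1.

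Libraries were not paired by replicate number in the main fit. Deviations of same-numbered libraries correlated over 15149 genes at 0.19 (RepB-/- and RepB+/-), 0.07 (RepB-/- and WT) and 0.11 (RepB+/- and WT), not all above 0.1. Whether same-numbered libraries were handled together was not tested. With a replicate block 80 genes were called, among them 3 X-linked and 21 of the lists, with 13 in 129 reads and 8 in CAST reads.

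With 2 libraries per genotype and 8000722 counts in the shallowest, small changes of low genes were not detectable, and a gene that missed the threshold is not shown to be equal in both genotypes. The cause of these changes with the setting was not tested.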

Other observations

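Several further gene groups, chosen with earlier results of these data known, held no called gene with all libraries, and their medians are given as values. The 23 tested genes of endoderm and yolk sac had a median log2 fold change, RepB-/- over RepB+/-, of -0.26, with 22 below 0 (51.5% of all genes tested) and 8 with an unadjusted p under 0.05, all lower (3.93% of all genes tested). Apob, the main lipoprotein of yolk sac and liver, had 136 and 138 CPM in RepB-/- cells, against 205 and 158 CPM in RepB+/- cells. In WT cells it had 61.1 and 59.3 CPM. Its log2 fold change was -0.42 (SE 0.12, edgeR adjusted p = 0.349), and -0.58 without RepB+/- replicate 2, which left 1 library of that genotype. Sox17, a factor of definitive endoderm, had 9.39 and 8.82 CPM against 12.04 and 15.5 CPM in RepB+/- and 8.88 and 11.6 CPM in WT cells (-0.56, SE 0.19, adjusted p = 0.46). The median lay between -0.40 and -0.15 when 1 library was left out.

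The median of 6 neural crest genes was -0.38. Among them Foxd3, a factor of both neural crest and pluripotent cells, had 1.17 and 0.914 CPM in RepB-/- cells, against 3.30 and 4.14 CPM in RepB+/- cells. In WT cells it had 0.671 and 0.933 CPM. Its log2 fold change was -1.77 (SE 0.34, edgeR adjusted p = 0.0711), and -1.96 without RepB+/- replicate 1, which left 1 library of that genotype. Of 8 erythroid and blood progenitor genes, with a median of -0.59, the embryonic globin gene Hbb-bh1 had 0.380 and 0.229 CPM against 0.843 and 1.29 CPM (-1.63, SE 0.53, adjusted p = 0.447), and 0.568 and 0.424 CPM in WT cells, so its reads were few in every library. Of 33 Hox genes, the median was -0.24 and 25 lay below 0 (51.5% of all genes tested). Hoxd13, which patterns the distal limb and hind body, had 1.45 and 1.46 CPM against 2.67 and 2.97 CPM (-0.93, SE 0.32, adjusted p = 0.476). Of 13 genes of the Wnt pathway, with a median of -0.18, the Wnt antagonist gene Dkk1 had 5.56 and 5.35 CPM against 7.69 and 8.14 CPM (-0.53, SE 0.20, adjusted p = 0.59).

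The median of all genes was -0.01. Imprinted genes (28 tested, median -0.09), replication and mitosis (20, -0.09), BMP pathway (15, -0.08), collagens (16, -0.14), germline genes (11, -0.15), epithelium (12, -0.12), immediate early genes (16, -0.05), sterol synthesis (15, -0.05), neural genes (14, -0.03), cohesin and CTCF (11, -0.04), DNA methylation enzymes (11, -0.06), skeletal muscle (3, -0.01), the unfolded protein and amino acid response (15, -0.03), fibroblast matrix (19, -0.01) and heat shock (10, -0.01) had medians at or below 0. Trophoblast (10, 0.03), smooth muscle (9, 0.05), p53 targets (16, 0.05) and interferon response (12, 0.12) had medians above 0. The collagen median ran from -0.38 to 0.22 and that of the interferon response from -0.10 to 0.32 when 1 library was left out. In the imprinted list Magel2, of the Prader-Willi region, had 1.10 and 2.01 CPM in RepB-/- cells, against 4.49 and 3.36 CPM in RepB+/- cells. In WT cells it had 1.497 and 1.36 CPM. Its log2 fold change was -1.41 (SE 0.33, edgeR adjusted p = 0.194), and -1.55 without RepB+/- replicate 2, which left 1 library of that genotype.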
